A study of Mus musculus with 6 samples.

Results

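Transcripts of 10 genes typical of myeloid cells were followed in RNA sequencing libraries of cultured B cells: *Lyz2*, *Tyrobp*, *C1qa*, *C1qb*, *C1qc*, *Clec4d*, *Clec4e*, *Clec4n*, *S100a8* and *S100a9*. They are 10 of the 46983 genes in the deposited table. The genes were selected on their levels in these same libraries, so their differences between WT and *Hif1a* KO are given as a description, and where a fit over all genes is reported, its calls of these genes support nothing. The 6 libraries came from splenic B cells of mice, 3 labelled WT (here WT1 to WT3, by replicate number) and 3 labelled *Hif1a* KO (KO1 to KO3). HIF-1α is the oxygen-regulated subunit of a transcription factor that turns on genes of glycolysis and of the response to low oxygen. In the KO mice cre under the *Mb1* promoter, which drives the B-cell receptor chain CD79a and acts in the B-cell lineage, deletes floxed sequence of *Hif1a*. The WT mice were C57BL/6 littermates that carried either 1 floxed allele with cre or floxed alleles without cre, and the genotype behind each WT library is not labelled. All cultures were collected on day 3 and received TGF-β, IL-5 and BAFF, each at 10 ng/ml, together with 5 μg/ml of LPS. For such cultures the study's methods describe follicular B cells, CD21int CD23+, sorted from spleen by flow cytometry to high purity, and name anti-IgM with anti-CD40 as another stimulus besides the LPS that the labels give. Whether each library came from its own mouse is not stated, so p-values measure the spread between these libraries, which may be technical.

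Myeloid cells (neutrophils, monocytes, macrophages and dendritic cells) are the innate phagocytes of blood and tissue, and the spleen holds all of them. *Lyz2* encodes lysozyme M, which digests bacterial cell walls and is made by macrophages and neutrophils alike. *S100a8* and *S100a9* encode the subunits of calprotectin, the most abundant protein of neutrophil cytosol, whereas the 3 chains of C1q, which starts the classical complement cascade, are made mainly by macrophages and dendritic cells. *Clec4d* (MCL), *Clec4e* (Mincle) and *Clec4n* (Dectin-2) encode C-type lectin receptors for microbial glycolipids and mannans that signal through Fc receptor gamma chain, Syk and Card9, and *Tyrobp* encodes DAP12, the adaptor through which many activating myeloid receptors signal.

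Of the 10 genes, 8 lie in 3 compact clusters of GRCm38. *S100a8* and *S100a9* are the 2 genes of a 26.7 kb stretch of chromosome 3 (90668978 to 90695721). *C1qb*, *C1qc* and *C1qa* fill 18.7 kb of chromosome 4 (136880129 to 136898803), and *Clec4n*, *Clec4d* and *Clec4e* fill 60.0 kb of chromosome 6 (123229843 to 123289870). *Lyz2* is on chromosome 10 (117277331 to 117282321) and *Tyrobp* on chromosome 7 (30413760 to 30417585). RefSeq promoters were matched for 7 of the 10 genes, all but *C1qa*, *Tyrobp* and *Clec4n*. Those of 4 genes are shown because they stand for the contrasting patterns described below, the calprotectin pair, which was high in WT1, and a pair of neighbouring lectin genes, which were high in WT2 and WT3. The sequences are bases before the RefSeq start, on the gene's strand and outside the annotated gene, at chr3:90668821-90668977 (plus strand), chr3:90695722-90695971 (minus), chr6:123261857-123262106 (plus) and chr6:123289872-123290121 (minus) of GRCm38.p6. Capitals mark matches to the motifs given after them.
S100a8: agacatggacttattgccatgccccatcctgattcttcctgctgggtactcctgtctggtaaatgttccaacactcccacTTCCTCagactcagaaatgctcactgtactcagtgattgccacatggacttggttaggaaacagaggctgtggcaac
S100a9: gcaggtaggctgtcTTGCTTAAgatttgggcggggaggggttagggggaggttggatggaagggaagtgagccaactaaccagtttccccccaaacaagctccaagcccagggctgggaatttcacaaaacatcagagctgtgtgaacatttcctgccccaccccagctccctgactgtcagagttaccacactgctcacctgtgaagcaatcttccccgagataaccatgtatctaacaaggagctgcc
Clec4d: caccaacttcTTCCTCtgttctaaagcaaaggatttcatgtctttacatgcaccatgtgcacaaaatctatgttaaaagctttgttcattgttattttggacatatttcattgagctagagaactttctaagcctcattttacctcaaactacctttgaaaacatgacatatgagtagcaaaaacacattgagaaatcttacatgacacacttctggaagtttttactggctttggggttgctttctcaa
Clec4e: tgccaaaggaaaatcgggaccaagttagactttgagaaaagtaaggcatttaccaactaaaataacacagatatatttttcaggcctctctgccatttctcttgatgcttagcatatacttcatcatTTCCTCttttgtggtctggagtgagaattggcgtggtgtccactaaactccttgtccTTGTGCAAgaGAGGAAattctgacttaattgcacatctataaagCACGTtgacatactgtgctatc

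The letters searched, on both strands of up to 250 bases before the start, were GAGGAA for PU.1, a key regulator of myeloid and B-lymphoid genes, TTGCNNAA for C/EBP factors of granulocytes and macrophages, and ACGTG for HIF. For *S100a8*, *C1qc* and *Lyz2* the sequence held only 157, 99 and 201 bases and lacked the stretch nearest the start. The PU.1 letters stood in 5 of the 7 promoters (*S100a8*, *C1qb*, *C1qc*, *Clec4d* and, at 2 places, *Clec4e*) and in 23.3% of all 32851 promoters. The C/EBP letters stood in *S100a9* and *Clec4e*, 2 of 7, and in 9.56% of all. The HIF letters stood in 1 of 7, *Clec4e*, where the match begins 22 bases before the start, and in 16.6% of all promoters. The matches shown do not overlap one another. A match describes the sequence only and is not evidence of binding.

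The depth, recovered from the FPKM values (fragments scaled to transcript length and sequencing depth), was 25.0 to 37.2 M reads per library. WT1 stood apart from the other WT libraries. On the first principal component, which held 54.7% of the variance, it lay at 15.7, within the range of the KO libraries (7.10 to 19.5), whereas WT2 and WT3 lay at −26.2 and −25.9. KO2 was the lowest on the second component (−22.6) and carried Y-linked *Ddx3y* at an FPKM of 43.3, against at most 0.00945 in the other libraries. *Hif1a* itself had an FPKM of 36.5 to 49.8 in WT and 45.6 to 52.8 in KO, and a gene-level value does not check the deletion of a part of the gene. B-cell genes dominated every library: *Ms4a1* was at 327 to 445 and *Cd79a* at 498 to 1203 FPKM.

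The myeloid transcripts were scarce beside these and were spread unevenly over libraries of the same genotype. Their summed FPKM was 43.5, 89.7 and 39.4 in WT1, WT2 and WT3 and 2.54, 4.90 and 7.63 in KO1, KO2 and KO3. In such bulk samples, fewer cells of a type and less RNA per cell cannot be told apart. The WT sums rested on different genes. *S100a9* and *S100a8* led in WT1, and *Lyz2* led in WT2 and WT3.

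**Figure D1:**
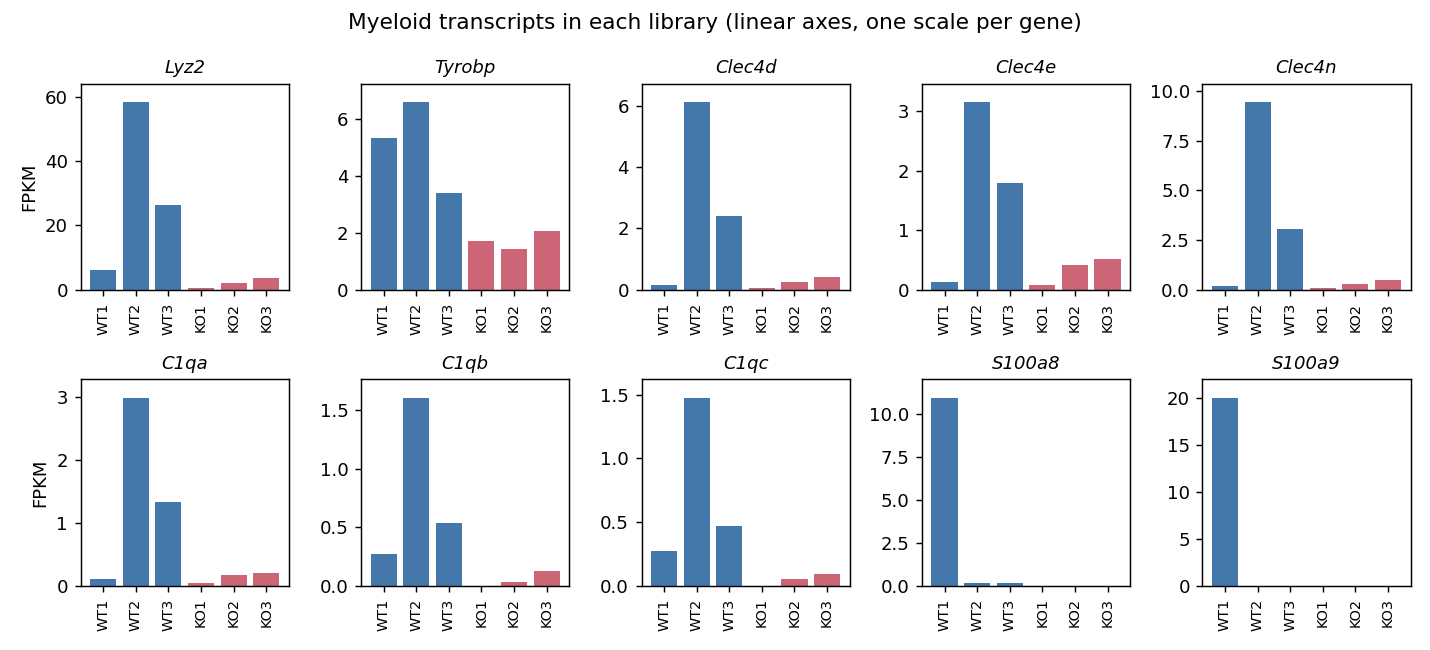
FPKM of each of the 10 myeloid genes (y axis, linear from 0, with its own scale for each gene) in the 3 WT (blue) and 3 *Hif1a* KO (red) libraries. Bars are single libraries: 8 genes peak in WT2, while *S100a8* and *S100a9* stand almost alone in WT1 at 10.9 and 19.9.

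*Lyz2* was the most abundant of the 10 genes. Its FPKM was 6.18, 58.3 and 26.2 in WT1, WT2 and WT3 and 0.60, 2.23 and 3.70 in KO1, KO2 and KO3, on 291, 2283 and 862 reads and 19, 97 and 140 reads. The groups did not overlap, as for 6.03% of all genes tested in the same direction. Yet WT2 exceeded WT1 by 9.43 times, while WT1 was only 1.67 times the highest KO library. The WT mean was 30.2 ± 26.3 and the KO mean 2.18 ± 1.55 (SD, n = 3 each), and the difference on log2(FPKM + 1) was −2.97. The 95% exact Poisson intervals, which cover counting error only, were 5.49 to 6.93 in WT1, 55.9 to 60.7 in WT2 and 3.11 to 4.37 in KO3. They do not overlap, so the WT libraries differed by more than counting error.

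*Tyrobp*, the DAP12 adaptor, was spread more evenly. Its FPKM was 5.34, 6.59 and 3.41 in WT1, WT2 and WT3 and 1.70, 1.45 and 2.08 in KO1, KO2 and KO3. The groups did not overlap, as for 6.03% of all genes tested in the same direction. WT1 was close to WT2, with intervals of 4.39 to 6.42 and 5.44 to 7.91. The WT mean was 5.11 ± 1.60 and the KO mean 1.74 ± 0.319 (SD, n = 3 each), a log2 difference of −1.13. Its lowest KO value, 1.45, was above that of the other 9 genes, and its KO values rested on 24 to 35 reads per library.

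The receptors that pair with DAP12 were mostly very low. Of 13 genes listed, a related adaptor included, 11 stayed under 1 FPKM in every library and 3 were at 0 throughout. *Hcst*, which encodes this adaptor, DAP10, was at 5.41 to 6.34 in WT and 4.39 to 5.67 in KO. *Siglech*, a receptor of plasmacytoid dendritic cells, was at 5.36, 2.77 and 4.50 in WT and 1.86, 2.21 and 2.50 in KO. These were the 2 genes tested, with 0 called. The groups did not overlap for *Siglech*, as for 6.03% of all genes tested in the same direction.

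The 3 lectin receptors shared a pattern. For *Clec4n* the FPKM was 0.200, 9.43 and 3.08 in WT1, WT2 and WT3 and 0.0851, 0.310 and 0.499 in KO1, KO2 and KO3. For *Clec4d* it was 0.143, 6.10 and 2.41 in WT and 0.0424, 0.247 and 0.427 in KO. For *Clec4e* it was 0.125, 3.15 and 1.79 in WT and 0.0741, 0.418 and 0.512 in KO. WT2 and WT3 were above every KO library for all 3 genes, as they were for 32.0% of all genes tested, and WT1 lay within the KO range for all 3. Reads were 7, 274 and 75 in WT for *Clec4n*, so the WT1 value rests on few fragments, with an interval of 0.0805 to 0.413 FPKM. Over all 6 libraries the log2 differences were −1.53 for *Clec4n*, −1.30 for *Clec4d* and −0.83 for *Clec4e*. The WT means were 4.23 ± 4.72, 2.89 ± 3.01 and 1.69 ± 1.51 and the KO means 0.298 ± 0.207, 0.239 ± 0.192 and 0.335 ± 0.231 (SD, n = 3 each) in the same order, so the WT spread was about as large as the WT mean. The mean of WT2 and WT3 was 21.0, 17.8 and 7.36 times the KO mean for *Clec4n*, *Clec4d* and *Clec4e*.

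Of the signalling chain under these receptors, *Fcer1g* and *Syk* were abundant in every library and *Card9* was not. Of the 13 genes listed for other lectin receptors and the Syk pathway, 6 were tested and 0 called, with a median log2 difference of 0.046. *Fcer1g*, the Fc receptor gamma chain, was at 125 to 151 FPKM in WT and 115 to 176 in KO, and *Syk*, which B cells also use, at 158 to 212 and 210 to 236. *Malt1*, which acts with Card9 and Bcl10, was at 19.0 to 19.9 and 19.3 to 20.4. *Card9*, which is not among the 4 most abundant genes of this list, was under 1 FPKM in every library. It was at 0.371, 0.580 and 0.638 in WT and 0.414, 0.141 and 0.208 in KO. *Clec7a*, the beta-glucan receptor Dectin-1, which was singled out after its values were seen, had the pattern of the 3 lectins instead, with 0.309, 5.11 and 2.92 in WT and at most 0.408 in KO.

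The C1q chains were low throughout. The FPKM of *C1qa* was 0.103, 2.98 and 1.33 in WT1, WT2 and WT3 and 0.0384, 0.168 and 0.193 in KO1, KO2 and KO3. The values of *C1qb* were 0.272, 1.60 and 0.531 in WT and 0, 0.0268 and 0.123 in KO, and those of *C1qc* 0.275, 1.47 and 0.466 in WT and 0, 0.0542 and 0.0934 in KO. All 3 chains peaked in WT2, and WT2 and WT3 exceeded every KO library, as they did for 32.0% of all genes tested. The WT mean of *C1qa* was 1.47 ± 1.44 and its KO mean 0.133 ± 0.083 (SD, n = 3 each), and the log2 differences were −0.94 for *C1qa*, −0.71 for *C1qb* and −0.67 for *C1qc*. *C1qb* and *C1qc* did not overlap between groups, beside 6.03% of all genes tested in the same direction, a set for which both were too low. *C1qa* in WT1 lay within the KO range. In WT1 these values were 4 reads for *C1qa* and 11 reads each for *C1qb* and *C1qc*, whose intervals (0.0282 to 0.265, 0.136 to 0.486 and 0.137 to 0.492 FPKM) overlap. The KO values of *C1qb* and *C1qc* were at most 4 reads. KO1 had 0 reads for both, and the intervals reach up to 0.135 FPKM for *C1qb* and 0.137 for *C1qc*.

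The rest of the complement list was led by genes that B cells express. Of 18 listed genes, 8 were highest in WT2, 7 were tested, 0 were called, and the median log2 difference was −0.014, beside −0.028 over all genes tested. *Cr2*, the complement receptor of B cells, was at 71.2 to 78.7 in WT and 65.5 to 93.2 in KO, and properdin (*Cfp*) at 61.3 to 81.4 and 49.4 to 85.2. *Cr1l* and *Cd55*, which restrain complement, were at 52.0 to 58.0 and 36.4 to 43.3 in WT and 55.5 to 56.9 and 39.4 to 50.3 in KO.

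*S100a8* and *S100a9* had the opposite distribution within WT. The FPKM of *S100a9* was 19.9 in WT1, on 383 reads, and 0 in all 5 other libraries. That of *S100a8* was 10.9 in WT1, on 200 reads, 0.131 and 0.157 in WT2 and WT3, on 2 reads each, and 0 in the 3 *Hif1a* KO libraries. WT1 held 97.4% of the *S100a8* signal of the 6 libraries and 100% of that of *S100a9*. Its *S100a9* was at least 85.9 to 118-fold higher than the other libraries, taking 3 reads in each as the floor. Its *S100a8* was 83.2 times that of WT2 (22.7 to 691 by counting) and 69.8 times that of WT3 (19.1 to 580), and at least 44.8 to 61.7-fold higher than the KO libraries. The log2 differences between KO and WT means, −1.32 and −1.46, thus describe WT1 and not the WT group, and without it they were −0.19 and 0. For both genes more than one transcript length could fit the FPKM, so the read numbers are less certain than for the other 8.

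Other S100 genes were led by *S100a10* and *S100a11*, which were abundant in every library. Of 13 listed family members and receptors, 7 were tested and 0 called, with a median log2 difference of 0.064. *S100a10*, the partner of annexin A2, was at 264 to 341 FPKM in WT and 333 to 383 in KO. *S100a11* was at 236 to 288 and 231 to 275, and *Tlr4*, the LPS receptor to which calprotectin can bind, at 6.97 to 9.77 and 7.40 to 8.27.

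Over the 10 genes, *S100a8* and *S100a9* were highest in WT1 and the other 8 were highest in WT2. Among these 8, WT2 exceeded WT3 by a median of 2.38 times (1.76 to 3.16) and WT1 by a median of 17.3 times (1.23 for *Tyrobp* to 47.1 for *Clec4n*). All 8 were higher in WT2 and WT3 than in every KO library, beside the 32.0% of all genes tested, a set without *C1qb* and *C1qc*. Only 4 of the 8 (*Lyz2*, *Tyrobp*, *C1qb* and *C1qc*) were so in WT1. KO3 was the highest KO library for 8 genes, and KO1 the lowest library of all for 7. All but *Lyz2* and *Tyrobp* stayed under 1 FPKM in every KO library.

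**Figure D2:**
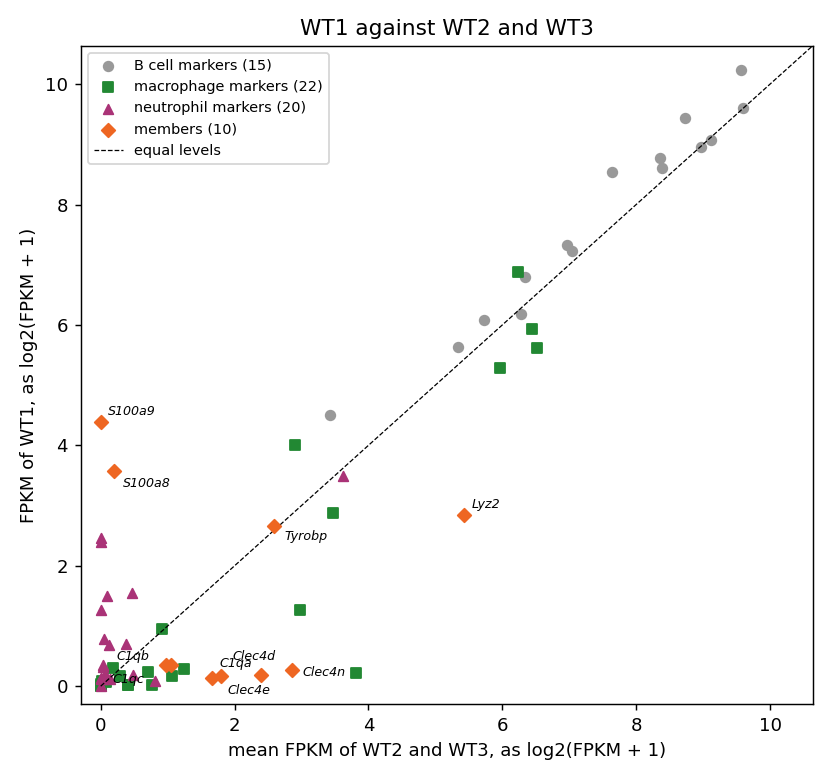
Level in WT1 (y axis) against the mean of WT2 and WT3 (x axis), both as log2(FPKM + 1), for the 10 members (orange diamonds, named) and for markers of B cells, macrophages and neutrophils. *S100a8* and *S100a9* lie far above the line of equal levels, *Lyz2*, *C1qa* and the 3 lectins far below it, and *Tyrobp* on it.

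Across all genes, limma on log2(FPKM + 1) with Benjamini-Hochberg adjustment tested the 13312 genes whose mean FPKM reached 0.5. It called 0 of them (0%) at an adjusted p under 0.05, while 929 had an unadjusted p under 0.05 and the smallest adjusted p was 0.321. Of the 10 myeloid genes 8 passed the filter, *C1qb* and *C1qc* being too low, and 0 were called. The median log2 difference of these 8 was −1.31, but the genes were chosen for it. Every KO library was below every WT library for 3 of the 8 (*Lyz2*, *Tyrobp* and *S100a8*, the last on 2 reads in WT2 and WT3), and for 803 of all genes tested (6.03%). With *C1qb* and *C1qc*, which are outside the genes tested and so outside this share, 5 of the 10 did not overlap.

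These counts depended on WT1. Without it, limma called 1251 of the 13312 genes, 766 lower (5.75%) and 485 higher in KO, and 6 of the 8 myeloid genes were among the lower ones (*Lyz2*, *C1qa*, *Tyrobp*, *Clec4d*, *Clec4e* and *Clec4n*). The rule that chose the genes used the same contrast, so nothing is read from this count. Their log2 differences were then −3.79 for *Lyz2*, −2.34 for *Clec4n*, −2.00 for *Clec4d*, −1.43 for *C1qa*, −1.36 for *Clec4e* and −1.08 for *Tyrobp*. Leaving out WT2 instead made them smaller in size, with −2.27 for *Lyz2*, −0.78 for *Clec4n*, −0.68 for *Clec4d*, −0.50 for *C1qa*, −0.42 for *Clec4e* and −0.95 for *Tyrobp*, and limma then called 0 genes (258 at an unadjusted p under 0.05).

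Some markers of other cell types moved with each pattern, and others did not. The 22 listed macrophage markers were led by genes that were abundant in every library: *Lgmn* (legumain), *Adgre1* (F4/80), *Mpeg1* (perforin-2) and *Axl* were at 73.7 to 136, 55.5 to 91.1, 41.9 to 95.3 and 35.5 to 63.4 FPKM. Among these, *Adgre1* was at 59.8, 91.1 and 81.1 in WT1, WT2 and WT3. *Mpeg1* was at 48.0, 95.3 and 86.1 and *Axl* at 37.8, 63.4 and 59.3 in the same order. *Lgmn* instead was lower in WT2 and WT3 (74.8 and 73.7) than in WT1 (117) or any KO library (80.1 to 136). Of the defining markers, *Csf1r*, the receptor for the macrophage growth factor, was at 0.176, 0.754 and 0.521 in WT and at most 0.172 in KO, and *Cd68* at 6.31, 12.04 and 8.11 in WT and 5.13 to 6.48 in KO. The summed FPKM of the list was 288 to 378 in WT and 273 to 343 in KO, 10 of 22 genes were tested and 0 called, with a median log2 difference of −0.35, and 14 of 22 were highest in WT2. Of the 22, 10 stayed under 1 FPKM in every library and 6 were at 0 in all KO libraries. The scavenger receptor *Marco*, singled out after its values were seen, was at 0.164, 18.8 and 7.31 in WT and at most 0.634 in KO. *Cd5l*, a secreted protein of tissue macrophages, and the mannose receptor *Mrc1* were singled out in the same way. *Cd5l* had the opposite order, with 15.1, 5.62 and 7.28 in WT and 16.6, 11.4 and 31.0 in KO, and *Mrc1* was at 0.714 to 1.12 in all libraries. Without WT1 limma called 3 of the 10 tested markers lower in KO, beside 5.75% of all genes tested. Some of the tested markers, such as *Marco*, passed the filter through WT2 and WT3, so nothing is read from this count. The sum of the list, carried by its abundant genes, overlapped between the groups. Within WT, *Marco*, *Csf1r*, *Cd68*, *Adgre1*, *Mpeg1* and *Axl* had the order of *Lyz2*, and *Lgmn*, *Cd5l* and *Mrc1* did not. The part of the macrophage markers in the result was not tested.

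**Figure D3:**
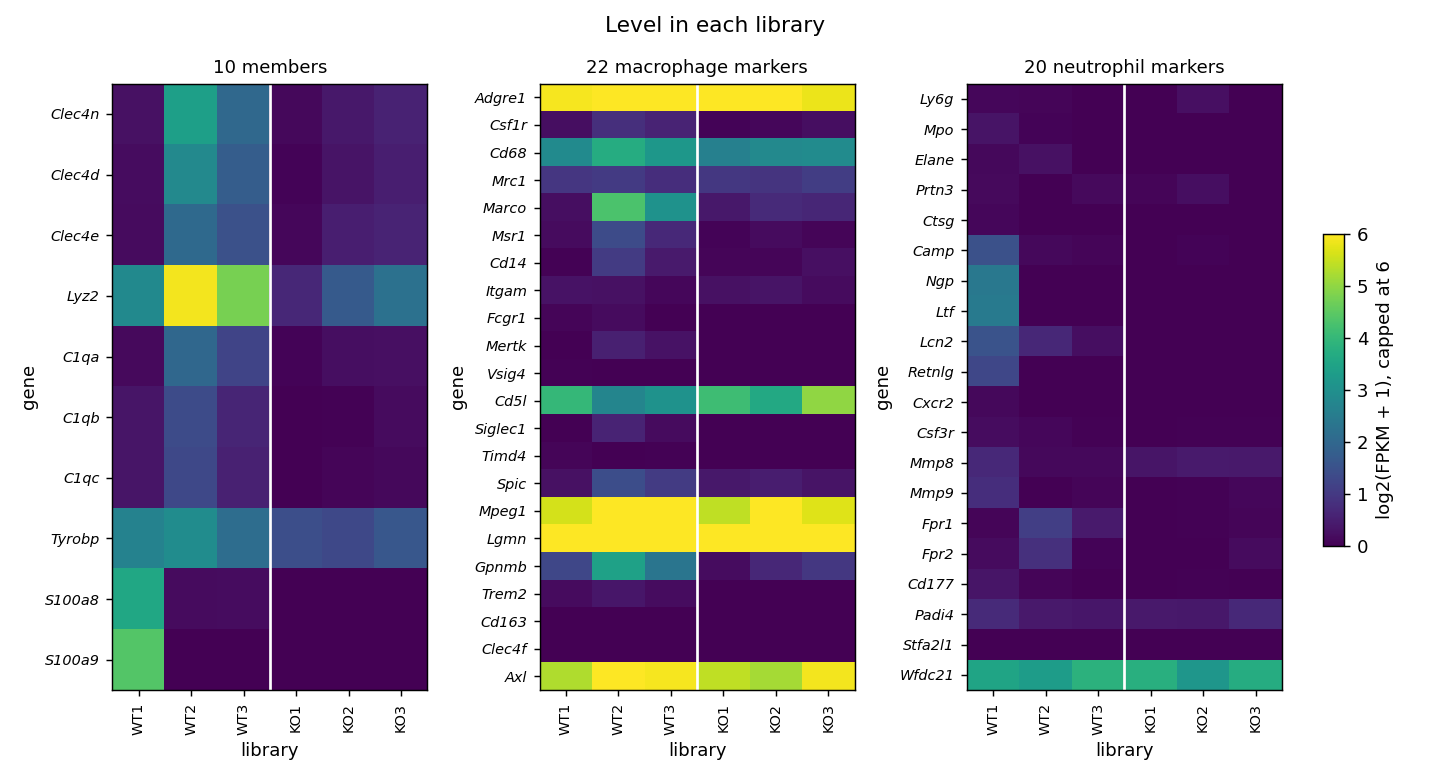
Level as log2(FPKM + 1), with the colour scale ending at 6, of the 10 members and of the listed macrophage and neutrophil markers (y axes) in each library (x axes, with a white line between WT and *Hif1a* KO). *Marco* and *Gpnmb* are bright in WT2 and WT3 like *Lyz2* and the lectins, and *Ngp*, *Ltf* and *Camp* in WT1 like *S100a8* and *S100a9*.

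Some neutrophil granule genes moved with *S100a8* and *S100a9*. Lactoferrin (*Ltf*) was at 4.50 FPKM and *Ngp*, a granule protein, at 4.27 in WT1, and both were at 0 in the other 5 libraries. *Lcn2* (lipocalin-2) was at 1.92, 0.593 and 0.166 in WT and 0 in KO. Of the 20 listed neutrophil markers 13 were highest in WT1, among them *Camp* at 1.81 and *Retnlg* at 1.41, named after their values were seen. Others went elsewhere, with 3 highest in WT2, 1 in WT3 and 2 in a KO library. *Fpr1*, also named after its values were seen, was at 0.0609, 1.15 and 0.349 in WT. The summed level was 27.5, 12.5 and 14.7 in WT and 8.99 to 13.4 in KO, much of it from *Wfdc21*, which was at 7.85 to 13.6 in every library. The defining markers were near the floor: *Ly6g* reached at most 0.182, *Mpo* at most 0.248 and *Elane* at most 0.211. Of the 20 genes 9 were at 0 in all KO libraries, and 3 (*Ltf*, *Ngp* and *Wfdc21*) were tested and 0 called. The median log2 difference of these 3 was −0.80, and 0 without WT1. *Ltf* and *Ngp* passed the filter through WT1 alone, so this median describes WT1 and not the WT group. The part of the neutrophil markers in the result was not tested.

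The other marker lists gave different distributions. Monocyte markers summed to 525 to 548 in WT and 556 to 594 in KO, mostly through *Ms4a4c*, at 419 to 485 in the 6 libraries, and *Ms4a6c*, at 94.8 to 109. Dendritic cell markers summed to 18.2 to 23.8 in WT and 14.8 to 21.5 in KO. Of these lists 4 of 9 and 6 of 11 genes were tested and 0 called.

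Inflammatory genes that LPS induces had a sum of 8.50, 39.4 and 26.7 in WT and 7.88 to 12.3 in KO, so that WT1 lay among the KO libraries. Of these 14 genes, 10 were highest in WT2 and 4 in WT3. *Saa3*, an acute phase protein made by macrophages, was at 0.253, 10.2 and 3.41 in WT and 0 to 0.504 in KO. *Ptgs2* (COX-2) was at 1.16, 6.90 and 5.86 in WT and 1.06 to 1.76 in KO, *Il6* at 1.26, 4.08 and 4.41 against 1.02 to 1.48, and *Tnf* at 5.18, 10.1 and 8.94 against 4.04 to 8.24. With all 6 libraries 6 genes of the list were tested and 0 called, with a median log2 difference of −0.75. Without WT1 limma called 4 of the 6 lower in KO, beside 5.75% of all genes tested. Some of the 6, such as *Saa3* (KO mean 0.223), passed the filter through WT2 and WT3, so nothing is read from this count.

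Some hemoglobin transcripts, a sign of erythroid cells, were higher in WT2 and WT3 than in the other libraries. The erythroid sum was 3.35, 16.5 and 13.6 in WT and 2.96 to 4.84 in KO. *Hbb-bs* was at 0.511, 8.05 and 5.60 in WT and at most 0.829 in KO, and *Hba-a1* at 0.18, 4.49 and 3.48 and at most 0.488. *Hbb-bt* did not share this order, with 2.29, 2.80 and 2.85 in WT and 1.42, 3.77 and 2.10 in KO. Of the 8 listed genes 3 were tested and 0 called, and without WT1 limma called 2 of the 3 lower in KO, beside 5.75% of all genes tested. *Hba-a1* (KO mean 0.334) passed the filter through WT2 and WT3, so nothing is read from this count. T-cell markers overlapped between the groups, with sums of 11.6, 7.83 and 8.50 in WT and 7.61 to 12.7 in KO. B-cell markers summed to 4335 to 5530 in WT and 4454 to 5817 in KO. The part of these cells in the levels of the myeloid genes was not tested.

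**Figure D4:**
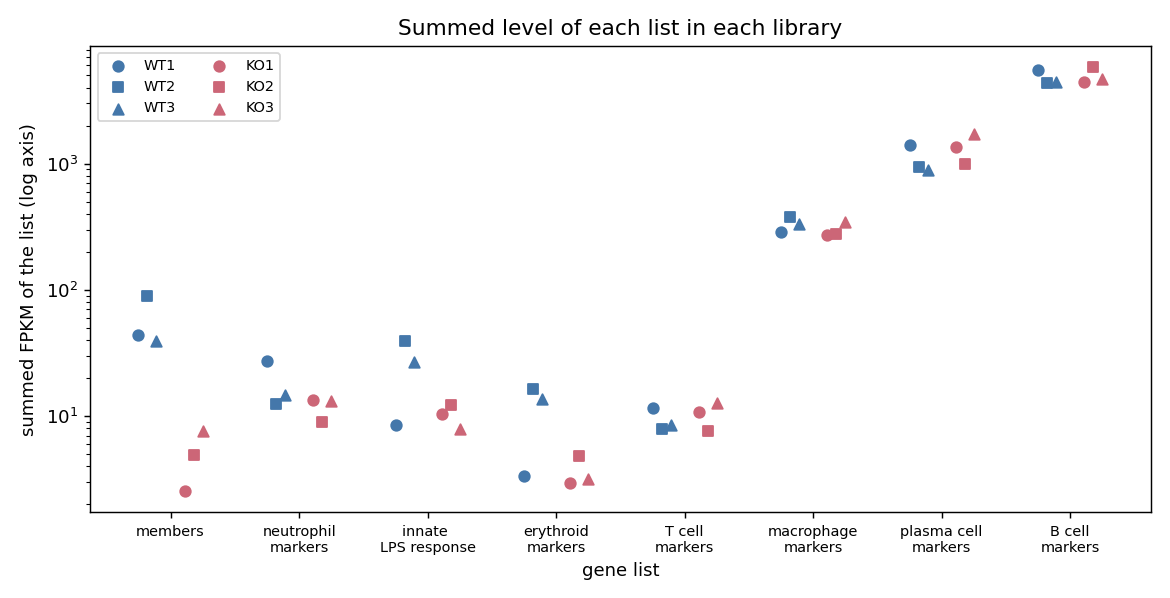
Summed FPKM of 8 gene lists (x axis) in each library (y axis, log scale), with WT in blue, *Hif1a* KO in red and a marker shape for each replicate number. The members' sums are 39.4 to 89.7 in WT and 2.54 to 7.63 in KO, the inflammatory and erythroid sums of WT1 sit with those of KO, and the B-cell sums lie at 4335 to 5817 in all 6 libraries.

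The regulators of myeloid genes were present in all libraries. *Irf8* was at 373 to 484 FPKM in WT and 466 to 504 in KO, and *Spi1*, which encodes PU.1, at 61.0 to 88.2 and 73.5 to 80.8. Both serve B cells too. *Cebpd* was at 8.05 to 14.4 and 14.1 to 19.3, and *Cebpb* at 0.998 to 2.15 and 0.735 to 1.05. Of the 9 listed factors 6 were tested and 0 called, with a median log2 difference of 0.18. In the list of phagocyte oxidase and microbicidal genes, 7 of 9 were tested and 0 called, with a median of −0.050, and the oxidase subunits *Cybb* and *Cyba* were at 419 to 541 and 417 to 436 in WT and 561 to 615 and 364 to 463 in KO. The Fc gamma receptors, led by the B-cell inhibitory receptor *Fcgr2b* at 107 to 137 in all libraries, had 2 of 5 genes tested and 0 called.

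The genes whose levels most resembled the mean standardized level of the 10 were sought among 969 genes, as Pearson's r over the 6 libraries, whose depth and composition all genes share. The 10 closest had an r of 0.936 to 0.987. They included *Gpnmb*, a glycoprotein of phagocytes (1.41, 9.75 and 4.05 FPKM in WT, 0.156 to 0.970 in KO), *Ms4a6d*, *Ptges* (a prostaglandin E synthase), *Ier3*, *Cd68* and *Srxn1*, with *Mir7651*, *Gm43218*, *Gm22771* and *Hist1h3i*. In comparisons added after the data were seen, 0 of these 10 were among the 10 closest to *S100a8* and *S100a9* alone, and 7 were among the 10 closest to the other 8 genes. Closest to the pair were *Ngp* and *Ltf*, both at 0.999, and closest to the other 8 were *Ptges* at 0.996 and *Gpnmb* at 0.994. Since 6 libraries give few patterns, these values describe the libraries only.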

How the data were processed

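The bulk RNA-seq data comprised 6 libraries, grouped by their labels. According to the study's methods, the authors cleaned the paired-end reads, aligned them to mm10 (GRCm38) with TopHat, counted reads per gene with HTSeq and divided by gene length and depth to give the deposited FPKM. The annotation release and the strand option are not given in the sources used here, so reads of overlapping genes may be shared. No per-sample column was left out.

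Symbols came from GENCODE vM21, which matched 46488 of 46983 identifiers. Whole reads were recovered from the step size of the FPKM: 95.8 to 96.2% of low values were whole within 0.02 reads, and the reads came to 99.9% of each library's depth. Intervals (95%, exact Poisson) and floors (3 reads) cover counting error only. Groups were compared with limma 3.58.1 in R 4.3.3 (eBayes with trend) on log2(FPKM + 1) for genes whose mean FPKM reached 0.5. The script was tested on simulated data. No pairing by replicate number is stated, and deviations from the group means did not correlate strongly between libraries of the same number (−0.0987, 0.139 and −0.276). The main fit therefore has no block. With means of 3 libraries, these correlations cannot exclude a pairing. Tables and plots were made with scipy 1.17.1, matplotlib 3.10.9, numpy 2.4.6 and pandas 2.3.3 in Python 3.11.15. Promoters came from RefSeq (GRCm38.p6).

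The members and lists were chosen with earlier results of these data known. Genes named are the members, the 4 most abundant of a list, defining markers and the 10 most alike in level, and others are marked as singled out later. *Card9* falls outside this rule, as do *Hif1a* and *Ddx3y*, which describe the libraries. Alternatives were another pseudocount, filter or scaling, no trend, a replicate block, voom on recovered reads and each library left out.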

Additional observations from a re-analysis of the deposited data

How the results depend on the processing

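The number of genes called by limma was 0 in every setting with all 6 libraries, the fit with the replicate number as a replicate block included (0 called, 694 with an unadjusted p under 0.05, against 929 without it) and voom on the recovered reads (0 called, 829 unadjusted). With 1 library left out it ranged from 0 to 1251, with 1251 without WT1 and 1 when KO1 was dropped. The median log2 difference of the members, −1.31, was −2.47 with a pseudocount of 0.1, −2.56 with voom and −2.97 at a mean FPKM of at least 5, where *Lyz2* alone remained, and ranged from −1.40 to −0.868 with 1 library left out, the smallest size being that without WT2. A pseudocount of 1 compresses changes of genes near 1 FPKM, which most members are. The 3 of 8 members with no overlap between groups became 5 of 10 with all genes above 0, 1 of 1 at a mean FPKM of at least 5, and 3 to 7 with 1 library left out (7 without WT1). Every KO library was below every WT library for 6.03% of all genes tested, and for 32.0% with WT1 left out. Over 97 alternatives for single members, 96 kept a value below 0, the exception being *S100a9* at 0 without WT1. The members were chosen on these same values, so this count supports nothing. The same numbers in WT and KO labels carry no stated pairing. Depth limits the C1q chains in KO, at 0 to 6 reads in each library, and *S100a8* and *S100a9*, at 0 reads in all 3.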
